A study of Mus musculus with 8 samples.

Results

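The Hox genes stand in 4 clusters in the mouse genome, and deposited Foxk1 peaks were counted in a window around each one. A peak was taken where its summit fell in the Hoxa window (chromosome 6, 52.1 to 52.3 Mb), the Hoxb window (chromosome 11, 96.0 to 96.25 Mb), the Hoxc window (chromosome 15, 102.7 to 102.95 Mb) or the Hoxd window (chromosome 2, 74.45 to 74.65 Mb), all on the mm9 assembly. The rule for a peak uses its position alone and no measured value, although these windows were chosen with earlier results of the same list known. They held 44 of the 28933 peaks in the list: 13 in Hoxa, 13 in Hoxb, 18 in Hoxc and 0 in Hoxd.

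The study immunoprecipitated chromatin from mouse embryonic fibroblasts (MEFs), connective-tissue cells cultured from embryos, and sequenced the DNA. All cells were grown in DMEM, a standard culture medium, and received no treatment. Of the 8 libraries, 3 came from the Foxk1 antibody, 3 from IgG as the control antibody and 2 from input, chromatin carried through without antibody. The sources used here give no strain, genotype or embryonic age of the cells. The values are 1 list of peaks, Foxk1 against input, with no value per library. No result below therefore carries a replicate error or a test over samples, no value for IgG was used, the read depth behind a peak is unknown, and binding of Foxk1 cannot be told apart from pull-down that any antibody would give.

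Hox genes encode homeodomain transcription factors that give cells their position along the head-to-tail axis and along the limbs. Their order on the chromosome follows the order in which they are used in the body, with low numbers acting towards the head and high numbers towards the tail, and fibroblasts taken from different body sites keep different sets of Hox genes active. Foxk1 belongs to the forkhead family, whose members grip DNA with a winged helix, and it recruits other proteins to chromatin. Among its partners is the deubiquitinase BAP1, whose fly counterpart was found through its role in keeping Hox genes silent, and silent Hox clusters are classic targets of Polycomb proteins.

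The gene table used here (RefSeq, GRCm38.p6, a build other than that of the peaks) served for gene order alone, so no peak is tied to a single gene. Genes were sorted by the start coordinate of their record, which can place a long gene ahead of a neighbour. In this sorting Hoxb3 came before Hoxb4, and Hoxd3 before Hoxd4, against the order of their numbers. On chromosome 6 the listed order with rising coordinate was Hoxa2, Hoxa3, Hoxa4, Hoxa5, Hoxa6, Hoxa7, Hoxa9, Hoxa10, Hoxa11 and Hoxa13. It starts with Hoxa2, which patterns the hindbrain and the second pharyngeal arch, and ends with Hoxa13, which shapes the hand, foot and genital tract. On chromosome 11 the order ran the other way, from Hoxb13, expressed in the tail end and the prostate, through Hoxb9, Hoxb8, Hoxb7, Hoxb6, Hoxb5, Hoxb3, Hoxb4 and Hoxb2 to Hoxb1, a gene of the hindbrain. On chromosome 15 it ran from Hoxc13, which acts in hair and nails, through Hoxc12, Hoxc11, Hoxc10, Hoxc9, Hoxc8, Hoxc6 and Hoxc5 to Hoxc4. On chromosome 2 it ran from Hoxd13, a gene of the digits, through Hoxd12, Hoxd11, Hoxd10, Hoxd9, Hoxd8, Hoxd3 and Hoxd4 to Hoxd1. The table thus listed 10, 10, 9 and 9 of the 38 genes considered on these 4 chromosomes.

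The clusters are copies of an ancestral one, and the microRNAs between their genes show it. The sequences are printed because the Hoxb and Hoxd clusters, with 13 peaks and 0, carry almost the same microRNA, as do Hoxa, Hoxb and Hoxc among themselves. They are mature sequences from RefSeq (GRCm38.p6), read 5′ to 3′, with the seed (bases 2 to 8) in capitals.
mmu-miR-10a-5p (Mir10a, Hoxb cluster): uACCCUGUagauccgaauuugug
mmu-miR-10b-5p (Mir10b, Hoxd cluster): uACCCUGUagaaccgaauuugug
mmu-miR-196a-5p (Mir196a-1, Hoxb cluster, and Mir196a-2, Hoxc cluster): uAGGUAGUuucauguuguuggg
mmu-miR-196b-5p (Mir196b, Hoxa cluster): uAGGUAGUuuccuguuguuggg
The members of each pair share the seed and differ at 1 base, counted from the 5′ end: U12A from miR-10a to miR-10b and A12C from miR-196a to miR-196b.

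Foxk1 peaks were dense in 3 of the 4 Hox windows and undetected in the remaining one. Hoxc carried 72 peaks per Mb (exact 95% Poisson interval 42.7 to 113.8), Hoxa 65 (34.6 to 111.2), Hoxb 52 (27.7 to 88.9) and Hoxd 0 (0 to 18.4). The intervals cover the counting of peaks only, and they are too narrow because peaks clump along the genome. The intervals of Hoxa, Hoxb and Hoxc overlapped widely, so that the order among these 3 is not established: Hoxc to Hoxa stood at a ratio of 1.11 and Hoxa to Hoxb at 1.25. The interval of Hoxd ended below the start of all the others. Over the whole list the density was 10.98 peaks per Mb, with all peaks divided by a length that leaves out chromosome Y.

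**Figure D1:**
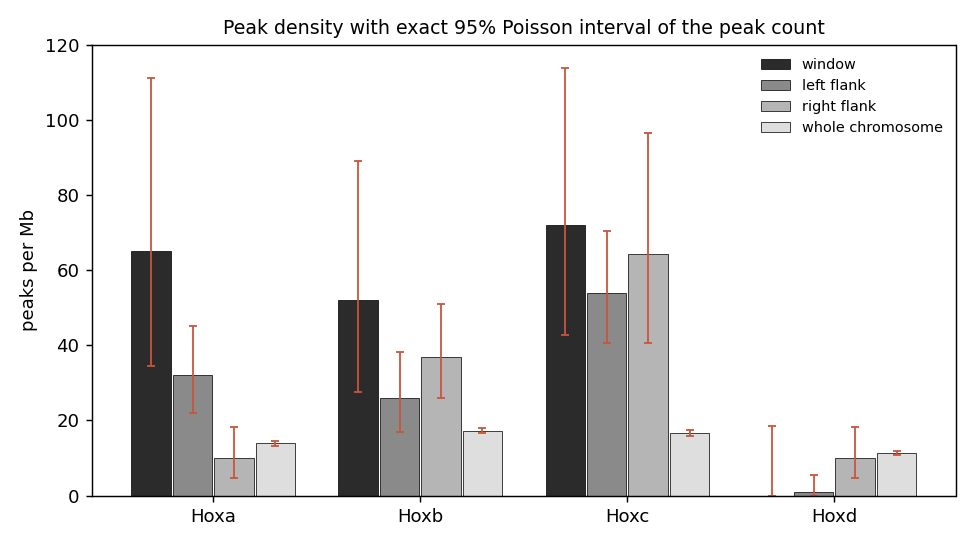
Peaks per Mb (vertical axis) for the window, the left and right flank and the whole chromosome of each Hox cluster, with exact 95% Poisson intervals of the peak count as error bars. The windows of Hoxa, Hoxb and Hoxc stand at 65, 52 and 72 peaks per Mb, above their chromosomes at 13.9, 17.3 and 16.7, while Hoxd stands at 0 on a chromosome at 11.3.

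How common such counts are was read from the genome cut into tiles of the same length. The Hoxa window held 13 peaks in 200 kb, and at least as many were found in 1.36% of the 13165 tiles of 200 kb, or in 18 of the 747 on chromosome 6. Of the 10530 tiles of 250 kb, 2.58% held at least the 13 peaks of Hoxb and 0.541% at least the 18 of Hoxc. On their own chromosomes these were 28 of 486 tiles for Hoxb and 8 of 413 for Hoxc. Empty windows such as Hoxd were common: 42.8% of all 200 kb tiles held no peak, among them 342 of the 908 on chromosome 2. At the mean density of chromosome 2, 200 kb would hold 2.25 peaks, or 11.3 per Mb, which lies within the interval of 0 to 18.4 given for Hoxd. Hoxd thus had no listed peak, unlike the other Hox windows, while a window of this length without a peak was no rarity on its chromosome. Whether Hoxd differs from the other windows beyond the clumping of peaks was not tested. The tiles start at fixed positions and the windows do not, and the fullest tiles held 27 peaks in 200 kb and 30 in 250 kb.

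**Figure D2:**
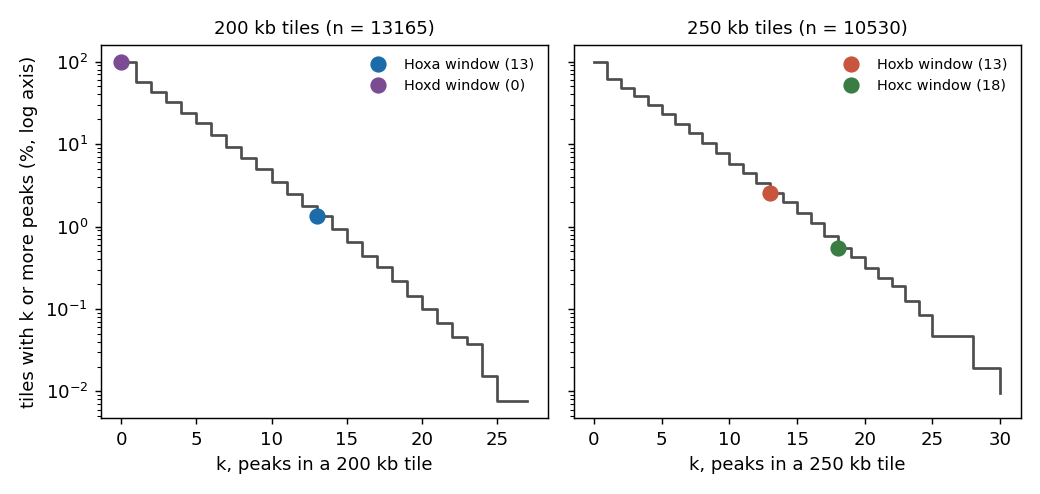
Percentage of tiles (log axis) holding k or more peaks, for 13165 tiles of 200 kb and 10530 tiles of 250 kb, with the 4 Hox windows marked at their own counts. Hoxa, Hoxb and Hoxc sit in the sparse upper tail at 1.36%, 2.58% and 0.541%, and Hoxd sits at 0 peaks, the most common count.

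Against the 1 Mb on either side, all 3 windows with peaks had a higher density, and the interval of the ratio lay above 1 for Hoxa only. Intervals of the ratio treat peaks as independent draws and, like those of the densities, are too narrow because peaks clump. The flanks of Hoxa held 32 peaks on the left (lower coordinates) and 10 on the right, or 21 per Mb, so that the window was 3.10 times as dense as its flanks (1.52 to 5.88, from an exact Clopper-Pearson interval of the window's share of the peaks). The ratio was 2.03 to the left flank and 6.50 to the sparser right one. The flanks of Hoxb held 26 and 37 peaks, and the window was 1.65 times as dense (0.83 to 3.03), with ratios of 2.0 to the left flank and 1.41 to the right. That interval includes equal density, and since it overlaps that of Hoxa, the order of the ratios is not established.

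The ratio for Hoxc depends on where chromosome 15 ends. No peak on it reaches beyond 103.308 Mb, while a right flank of 1 Mb would run to 103.95 Mb. Measured up to that last peak, over 358 kb, the right flank held 23 peaks, or 64.2 per Mb, and the left flank held 54 per Mb. The Hoxc window was then 1.27 times as dense as its flanks (0.72 to 2.14), which includes equal density. A flank that ends at a peak is as short as the list allows, so its density is then at its highest. The ratio of 1.27 is for that reason the lowest that the end of the chromosome permits. If the right flank is counted as a full 1 Mb, the ratio is 1.87, the highest. The true end of the chromosome was not available, so where the ratio lies between them is not known. Up to the last peak, but with the window narrowed by 25 kb at each end, which kept all 18 peaks, the ratio was 1.62. The Hoxc window thus lay in a stretch of chromosome 15 that was rich in peaks on both sides, and its 18 peaks were 1.04% of the 1724 peaks of that chromosome on 0.242% of its length. For Hoxb these shares were 0.618% of the 2103 peaks of chromosome 11 on 0.206% of its length.

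The Hoxd window lay inside an interval of 1.15 Mb without a peak, from a summit at 73730575 to one at 74885259 on chromosome 2. Of the 28912 intervals between neighbouring summits in the list, 266 (0.92%) were at least as long, and 13 of the 2044 on chromosome 2. Both shares count intervals by number. A window falls into a long interval more readily than into a short one, so they do not tell how rare such a place is. The left flank of Hoxd held 1 peak, with a signal value of 35.1, at 719 kb from the window. The right flank held 10, of which 9 were 750 kb or more from the window and 1, with a signal value of 11.4, was 235 kb from it. The density over both flanks was 5.50 per Mb, so 200 kb would hold 1.10 peaks at that density and a window at 0 is not distinguishable from its flanks (ratio 0, interval 0 to 3.98). Long stretches beside the Hoxd genes are known as gene deserts that hold their limb enhancers. Read depth and mappability in this interval were not available as values, and their part in the absence of listed peaks was not tested.

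**Figure D3:**
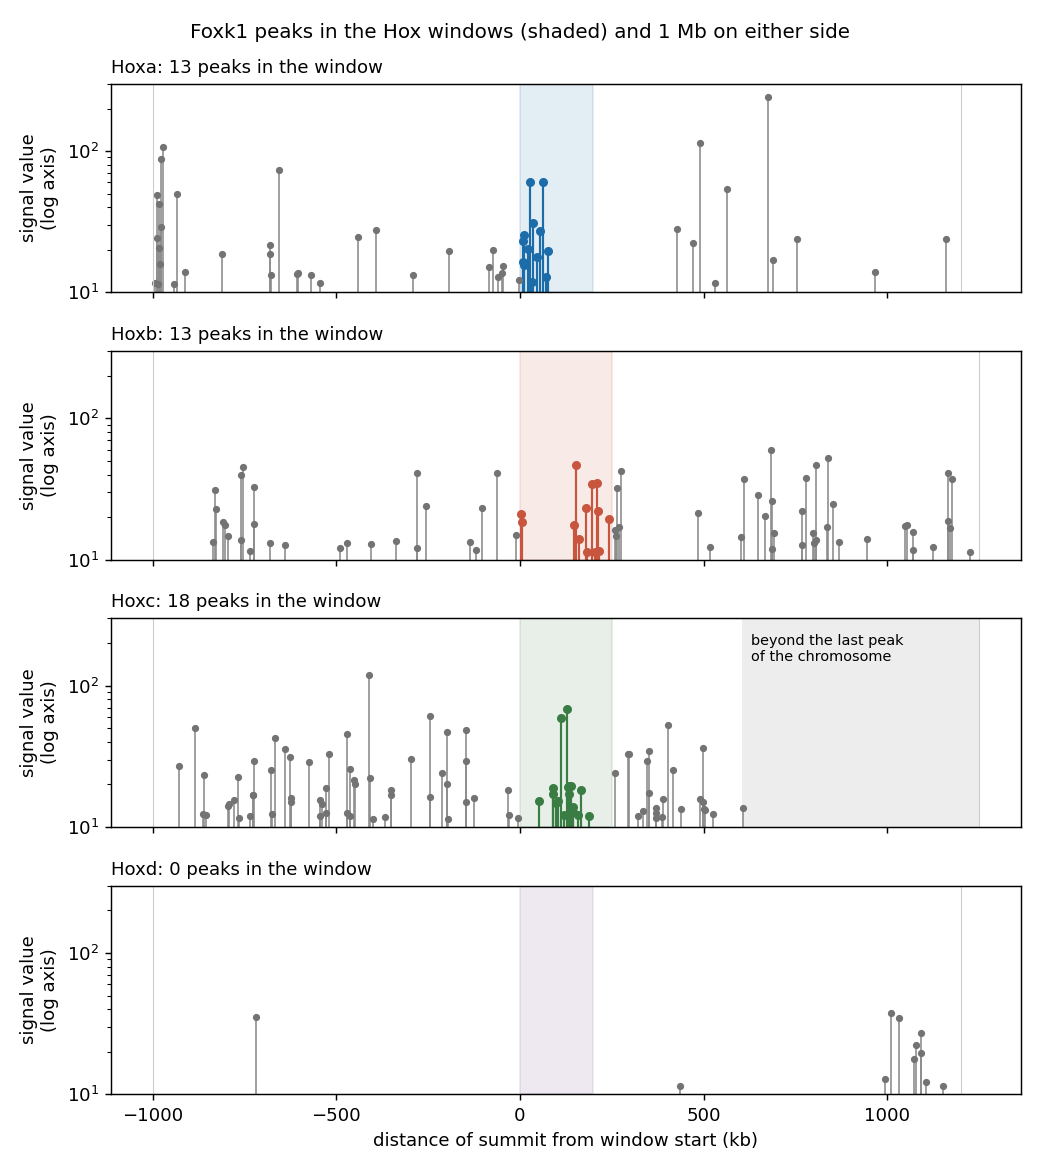
Signal value (log axis) of each peak against the distance of its summit from the start of the window in kb, with the window shaded, its peaks coloured and the peaks of the flanks in grey. Peaks crowd into the first part of the Hoxa window and stop before its right end. Around Hoxc they resume on both sides after empty stretches of 55.5 and 70.3 kb, and they leave Hoxd inside 1.15 Mb without a peak.

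Inside the Hoxa window all 13 peaks lay within 67.9 kb, from a summit at 52108438 to one at 52176289, in the part of the window that begins 8.44 kb from its start. After the last of them no peak followed for 352 kb, until 52528586. The strongest was at chr6:52163230-52163689 with a signal value of 60.5, and the next at chr6:52126894-52127353 with 59.9. The signal value is the authors' own score for a peak, with no stated scale, and it is given here for single peaks throughout. Both peaks were given the lowest q-value of the list, 0.00014.

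The remaining members of the 5 strongest in Hoxa were chr6:52135052-52135511 at 30.9, chr6:52154287-52154746 at 27.3 and chr6:52110918-52111377 at 25.6. The 2 leading peaks thus stood well above the third. The weakest was chr6:52132586-52133045 at 11.9, between a peak at 59.9 and one at 30.9. The last peak along the chromosome, chr6:52176059-52176518, had a signal value of 19.7.

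A run of 4 peaks opened the Hoxa window. Their summits were at 52108438, 52109698, 52110145 and 52111148, separated by 1260, 447 and 1003 bp, with signal values of 23.0, 16.4, 15.7 and 25.6. The middle pair overlapped by 13 bp. The outer peaks of the run were thus higher than the inner ones, and none of the 4 reached the values of the 2 leading peaks of the window. Beyond the run the remaining 9 peaks of Hoxa were spaced more widely, between 2466 and 11762 bp apart.

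In the Hoxb window the peaks fell into 2 groups with a long empty stretch between them. A pair of peaks stood at the left end, with summits at 96002313 and 96005312 and signal values of 21.2 and 18.4. No peak followed for 142 kb. The remaining 11 peaks lay within 95.96 kb, from 96147645 to 96243603, in the part of the window that in gene order lies towards Hoxb1. In the gene table Hoxb13 comes first and the others are listed after it from Hoxb9 on. Only their order was used, not the distances between them. Which genes the empty stretch lies between was not determined on mm9.

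The strongest Hoxb peak was chr11:96153444-96153903 with a signal value of 46.5, the only one of its window at the lowest q-value. It was followed by chr11:96209444-96209903 at 34.9, chr11:96194772-96195231 at 34.3, chr11:96180579-96181038 at 23.1 and chr11:96210973-96211432 at 21.9. None of the 13 Hoxb peaks reached 50, against 2 of 13 in Hoxa and 2 of 18 in Hoxc. In the whole list 7.97% of peaks did, and counts this small do not set the windows apart. The weakest peaks of all 44 were also here, at chr11:96181167-96181626 with 11.38 and chr11:96203894-96204353 with 11.41, both close to the lowest value in the list, 11.32. The last peak along the chromosome was chr11:96243373-96243832 at 19.3. It stood 29432 bp beyond the peak before it and, nearer, 14820 bp before the next peak, which lies outside the window.

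Summits closer than 2000 bp formed 2 pairs in Hoxb. The first, 588 bp apart at 96180809 and 96181397, joined a peak of 23.1 to the weakest one of 11.38. The second, 1529 bp apart at 96209674 and 96211203, joined peaks of 34.9 and 21.9. In both pairs the peak at the lower coordinate was the stronger.

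The Hoxc window held the most peaks, 18 over 137 kb, with the densest part in its middle. The first, chr15:102751163-102751622 at 15.3, stood 38.2 kb before the next, and the last, chr15:102888606-102889065 at 11.90, was the weakest of the window and stood 23758 bp after its neighbour. The remaining 16 peaks lay between 102789552 and 102865078. Across the window's bounds the list was empty for 55.5 kb before the first peak and for 70.3 kb after the last.

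The strongest peak of all the Hox windows was chr15:102828254-102828713 with a signal value of 68.8, which ranked 1112 in the list, within its top 3.84%. Next came chr15:102811714-102812173 at 58.8, with 1 peak of 12.1 between them. These 2 were the only Hoxc peaks at the lowest q-value, and the third, chr15:102832519-102832978, reached only 19.6. They were followed by chr15:102839670-102840129 at 19.5 and chr15:102830751-102831210 at 19.3. Signal values in Hoxc thus dropped from 58.8 to 19.6 between the second and the third peak, with nothing between them. The highest values in Hoxb were 46.5, 34.9, 34.3 and 23.1, and whether the windows differ in this was not tested.

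A run of 4 close summits followed the strongest Hoxc peak. It began 2497 bp after it, with summits at 102830981, 102832383, 102832749 and 102833543, separated by 1402, 366 and 794 bp. Their signal values were 19.3, 11.93, 19.6 and 17.0, and the middle pair overlapped by 94 bp. The other close pairs of Hoxc were at 102789552 and 102791123, 1571 bp apart with 18.7 and 17.1, and at 102845079 and 102845835, 756 bp apart with 13.8 and 12.8. All peaks in these runs and pairs were weak or middling, and the 2 leading peaks of the window had no other summit within 2000 bp.

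**Figure D4:**
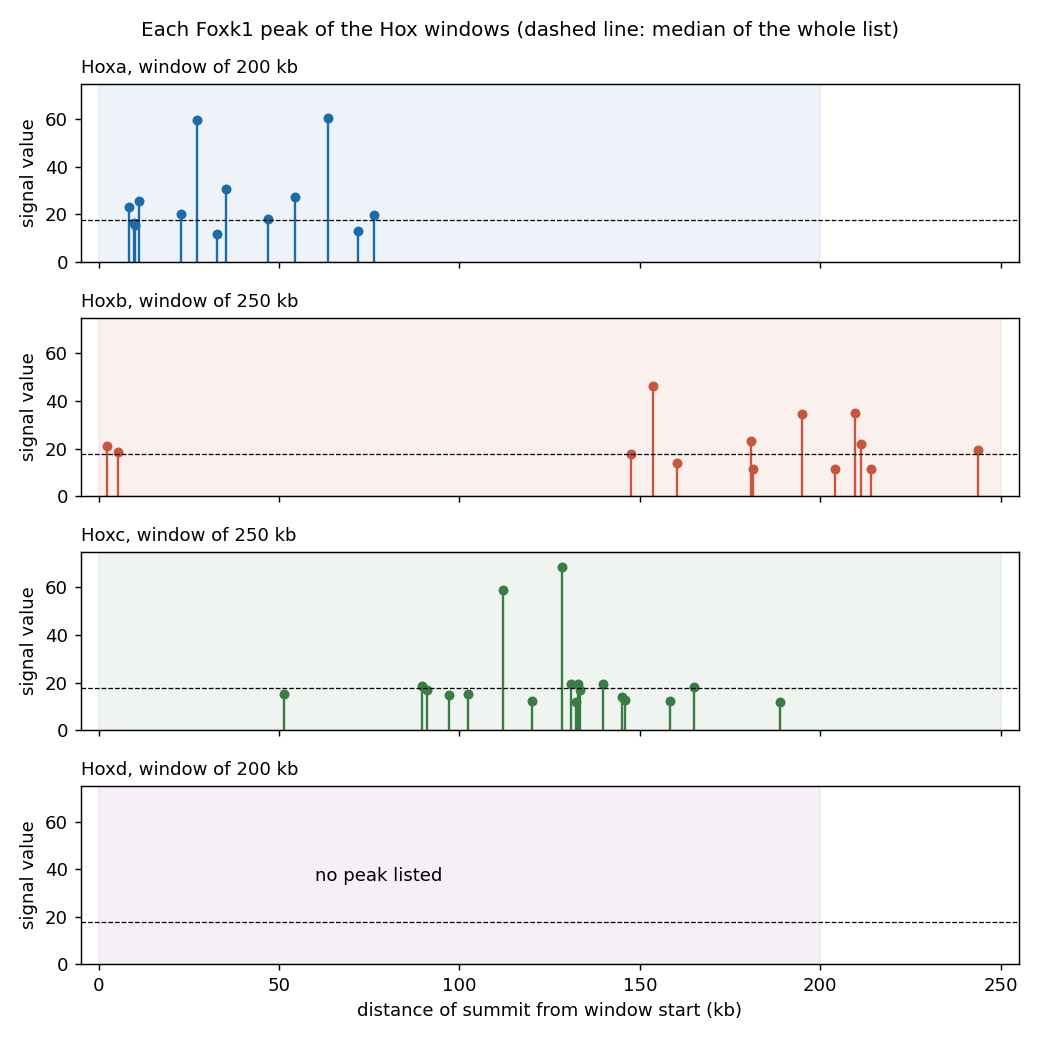
Signal value of each of the 44 peaks against its distance from the start of its window in kb, 1 panel per window, with the median of the whole list, 17.8, as a dashed line. Each of Hoxa and Hoxc shows 2 peaks near 60 or above it among many near 20, Hoxb shows none above 46.5, and Hoxd is empty.

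Close neighbours were common in the Hox windows, as they were around them. Another summit within 2000 bp was found for 4 of the 13 peaks in Hoxa, 4 of 13 in Hoxb and 8 of 18 in Hoxc, in all 16 of 44 or 36.4%. In the whole list 25.8% of peaks had such a neighbour, and in the flanks 37.8%. The share in the windows was thus close to that of their own surroundings. The median distance between neighbouring summits was 5.06 kb in Hoxa, 6.37 kb in Hoxb and 5.85 kb in Hoxc, against 24.8 kb over the list. A shorter distance is what a higher density gives, so this is no separate result. Joining summits closer than 2000 bp left 10 regions in Hoxa, 11 in Hoxb and 13 in Hoxc.

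The signal values of the 44 peaks were distributed much like those of the list. The median signal value of the 44 peaks was 18.3, from 11.38 to 68.8, against 17.8 for the list and 17.0 for the 193 peaks of the flanks. In 4 of 44 peaks (9.09%) the signal value was 50 or more, against 7.97% in the list and 6.22% in the flanks. Per length these strong peaks were denser in the windows, at 4.44 per Mb against 0.875 in the list and 1.63 in the flanks, as were peaks of any strength. The lowest q-value was given to 5 of 44 (11.4%), against 12.3%, and 24 of 44 (54.5%) lay at or above the median of the list, against 50%. All of these shares were near those of the list.

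By window the medians were 20.4 in Hoxa, 19.3 in Hoxb and 16.2 in Hoxc. The flanks had 19.2, 16.9 and 16.7, so that the window minus its flanks gave 1.18, 2.40 and -0.58. Intervals for the median of a window, from its order statistics (at least 95% coverage), ran from 15.7 to 30.9 in Hoxa, from 11.5 to 34.3 in Hoxb and from 12.8 to 19.3 in Hoxc. Each of them includes the median of its flanks. The 75th percentile was 23.0 in the windows, 28.8 in the flanks and 27.6 in the list, so that the windows were lower there, while their share of peaks at 50 or more was the higher one. Among peaks at or above the median of the list, the window minus its flanks was -1.94 in Hoxa, -9.96 in Hoxb and -9.73 in Hoxc, so that the sign of the difference in Hoxa and Hoxb rests on where the list is cut.

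The strongest peak of each flank was as follows. On the right of Hoxa the peak chr6:52775479-52775938 had a signal value of 241 at 476 kb from the window, and on the left chr6:51128401-51128860 had 107. The highest in the flanks of Hoxc was chr15:102289254-102289713 at 119 on the left, and chr15:103102843-103103302 at 52.9 led on the right. The flanks of Hoxb reached 45.5 at chr11:95245673-95246132 and 59.3 at chr11:96683919-96684378. Those of Hoxd reached 35.1 at chr2:73730345-73730804 and 37.4 at chr2:75460187-75460646. For Hoxa, Hoxb and Hoxc the highest flank peak was above the highest of the window, but the flanks held 42, 63 and 77 peaks against 13, 13 and 18, and a larger set tends to have a higher maximum by its size alone.

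**Figure D5:**
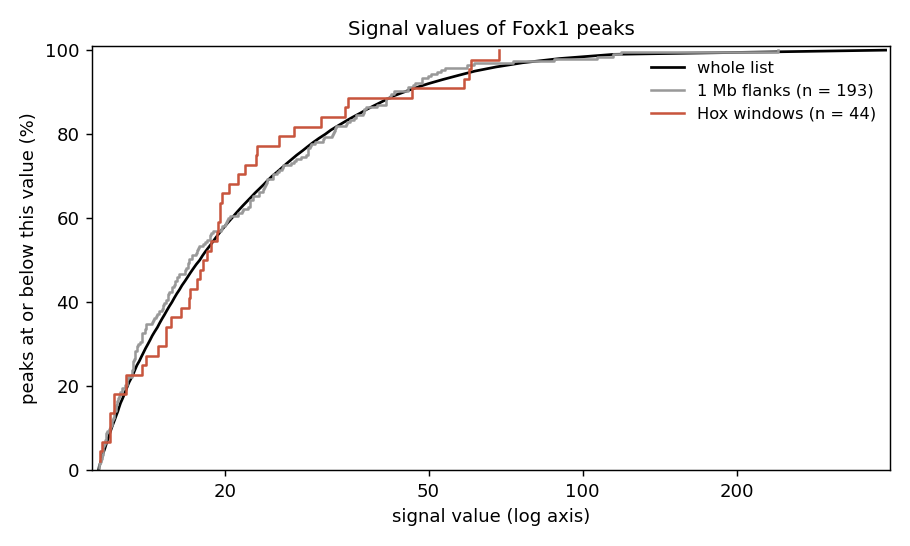
Percentage of peaks at or below a signal value (log axis) for the 44 peaks of the Hox windows, the 193 of the 1 Mb flanks and the whole list. The 3 curves run close together, and that of the Hox windows lies above the others between about 20 and 40 and ends at 68.8.

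The bounds of the windows decide which peaks count. Just inside the left bound of Hoxb stood the peak of 21.2 at 2.31 kb, and just outside it one of 14.9 at 11.6 kb. On its right the last peak inside had 19.3 and the first outside 16.1, at 8.42 kb. On the left of Hoxa the first peak outside, of 12.3, was only 1.69 kb from the bound and 10.1 kb from the first peak inside. For Hoxc the nearest peaks outside had 11.6 at 4.12 kb on the left and 24.2 at 9.10 kb on the right.

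Promoter sequences were searched for words that forkhead proteins bind, GTAAACA and, as the alternative, ATAAACA, on both strands of the 300 bases around each gene start. The words differ in their first letter, so that one position cannot hold both. The table had 24 promoters for 22 of the 38 Hox genes, and 0 of 24 held GTAAACA (exact Clopper-Pearson interval 0 to 14.2%; the limit of 3 counts that a count of 0 allows is 12.5%). It was held by 3.65% of all 32851 promoters listed, which would be 0.876 in 24. ATAAACA was found in 2 of 24 (8.33%, exact Clopper-Pearson interval 1.03 to 27.0%), against 4.60% of all. Neither share is distinguishable from that of all promoters at this number. Of the 24, 10 were of Hoxa, 3 of Hoxb, 1 of Hoxc and 10 of Hoxd, so Hoxb and Hoxc were barely covered.

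The 2 matches were in Hoxa10, which acts in the uterus and the vertebral column, and in Hoxb8, which acts in the nervous system and in blood-forming cells. Their surroundings are shown because they are the only promoters of the searched Hox genes with either word. They are 60 bases upstream of the start in the direction of the gene, from RefSeq on GRCm38.p6, whose positions cannot be set against the peaks on mm9, with the word in capitals.
Hoxa10, chr6:52241045-52241104, minus strand: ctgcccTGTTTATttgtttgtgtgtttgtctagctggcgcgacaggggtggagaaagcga
Hoxb8, chr11:96281736-96281795, plus strand: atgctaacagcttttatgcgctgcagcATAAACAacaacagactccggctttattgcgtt
The word began 244 bases before the start in Hoxa10, where it reads on the other strand, and 142 bases before it in Hoxb8. A match describes the letters and is not a bound site, and whether either promoter lies under a peak was not determined.

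Base composition was set side by side for the promoters of clusters with and without peaks. The median GC content was 58.5% over 10 promoters of Hoxd, from 39.7% at Hoxd4 to 74.3% at Hoxd13, and 56.5% over 10 of Hoxa, from 45.7% at Hoxa2 to 81.0% at Hoxa13. The median number of CpG dinucleotides in 300 bases was 20 in Hoxd and 17.5 in Hoxa, against 7 over all promoters in the table. Hoxb had 3 promoters and Hoxc 1, with GC medians of 58.0% and 60.3%. The ranges of Hoxa and Hoxd overlapped from 45.7% to 74.3%. The part of base composition in the number of peaks was not tested.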

How the data were processed

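Chromatin immunoprecipitation and sequencing was done on MEFs (3 Foxk1, 3 IgG and 2 input libraries, grouped by the antibody label or, for input, the title). Bowtie and mm9 are the aligner and build named in the submitters' processing notes. Per the file headers, the authors deposited 1 peak table made from Foxk1 against input, with a score per peak (its signal value, of unstated scale). The authors deposited a q-value per peak on a linear scale, computed by a caller that the file headers do not name. The sources used here give neither its settings nor any pooling of libraries.

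Peaks, all 460 bp wide, were assigned by summit, and coordinates are 1-based. Densities used the window length and, for chromosomes and the right flank of Hoxc, the highest peak end. Densities of the whole list divided all its peaks by the summed chromosome length without chromosome Y. Tiles covered chromosomes 1 to 19 and X. No test over samples was possible, and none was run over peaks. Named peaks are the 5 strongest, the weakest, the first and last and all close pairs of a window, and the strongest of each flank. The windows, genes and lists were chosen with earlier results of these data known. Promoter and microRNA sequences came from RefSeq tables. Counting functions were tested on simulated lists. Computation used Python 3.11.15, numpy 2.4.6, pandas 2.3.3, scipy 1.17.1 and matplotlib 3.10.9. Alternatives covered the peak threshold, merging of summits within 2000 bp, window bounds, flank extent and the forkhead word.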

Additional observations from a re-analysis of the deposited data

How the results depend on the processing

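Hoxd held 0 peaks, and a ratio of 0 to its flanks, under all alternatives run. None of them could add a peak to a window, so the 0 of Hoxd was fixed beforehand and is no check. Without peaks Hoxd gave no median or spacing. For Hoxa, Hoxb and Hoxc the ratio to the flanks stayed above 1 under all alternatives. It moved beyond its interval to 6.50 for Hoxa against the right flank alone, and for Hoxc to 4.35 against the rest of the chromosome and to 3.13 against a right flank counted as 1 Mb whatever the chromosome end, an alternative chosen after seeing the data. Stricter lists hold fewer peaks by construction. At or above the median signal value, density was 45 peaks per Mb in Hoxa, 32 in Hoxb and 28 in Hoxc. At a q-value of at most 0.001 it was 40 in Hoxa, 36 in Hoxb and 28 in Hoxc. Under both cuts Hoxc was no longer the densest window but the least dense of the windows with peaks. The counts in Hoxa, Hoxb and Hoxc were 9, 8 and 7 under the first cut and 8, 9 and 7 under the second. At such counts this order is not established either. The difference in median signal value, window minus flanks, reversed at or above the median signal value (-1.94 in Hoxa and -9.96 in Hoxb) and at a q-value of at most 0.001 (-1.05 and -9.35). In Hoxc it moved to -9.73 in both and to -6.62 with close summits merged. The cause of these reversals was not tested. The median distance between summits in Hoxc moved to 11.8 kb at or above the median signal value. No paired analysis was possible because 1 list covers all Foxk1 libraries together, which also means that no library could be left out. Without a known depth, an empty window had no peak detected at this threshold.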
